A study of Arabidopsis thaliana with 24 samples.

Results

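HY5, its close relative HYH, 4 B-box genes (BBX21, BBX22, BBX24 and BBX25), the repressor genes SPA1 and RUP2 and the early light-induced genes ELIP1 and ELIP2 form a light-signalling group of 10 Arabidopsis genes. They were taken by gene identifier from both deposited expression tables, where all 10 were found, among 33469 genes in the Col-0 table and 32844 in the WS and sku5 table. RNA of whole roots was sequenced after 2 suborbital flights, Virgin Galactic VP-03 (VG) and Blue Origin NS-12 (BO), and from plants kept on the ground. The 24 libraries fall into 8 groups of 3. Wild-type Columbia (Col-0) and Wassilewskija (WS) seedlings of 10 days made up the VG flight and VG ground groups, and wild-type WS and sku5 seedlings of 11 days, the mutant being in the WS background and known for skewed root growth, the BO flight and BO ground groups. The study set each flown group against its ground control.

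All plants were sown on Phytagel medium with 0.5% sucrose and raised under continuous fluorescent light of about 80 µmol m-2 s-1 at 19 °C. At the VG site the plates stood at ambient temperature under an LED bank, and at the BO site in a herb cultivator at 26 °C. Flight plates were packed in black-out cloth, while for the ground plates the labels record no cloth. Both flights gave 3 min of microgravity. Acceleration peaked near 4.5 g on the way up and 3.5 g on the way down at VG, and near 3 g and at 5.7 g at BO. BO flight seedlings were fixed 33 min after landing, and BO ground seedlings were taken out of the cultivator and harvested 1 h after the flown ones. Whether ground plates were kept in darkness too is not stated, and a harvest delay is given for BO alone. Light, handling and harvest time, where they differed, cannot be told apart from flight. Between VG and BO, the vehicle, year, site, temperature, lamp and age also differ. All replicates of a group were taken from 1 fixation unit, so p-values measure only the spread between these samples, which may be technical.

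As background, HY5 is a bZIP transcription factor that binds DNA motifs with an ACGT core and promotes light-dependent development. In darkness the COP1/SPA ubiquitin ligase marks HY5 for degradation, and light, sensed by phytochromes, cryptochromes and UVR8, lowers that activity. B-box proteins act with HY5 or against it: BBX21 and BBX22 promote its action, BBX24 and BBX25 hold it back. ELIPs are chlorophyll-binding proteins of the thylakoid membrane, made when light is strong or suddenly returns.

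In short, the VG flight called none of these genes in either ecotype. After the BO flight ELIP1, ELIP2, HY5, SPA1 and BBX22 were lower and BBX21 higher than on the ground in both WS and sku5. The calls of ELIP1, ELIP2, SPA1 and BBX21 held in all 12 alternative fits of each genotype. HY5 in WS held in 9 of 12, and BBX22 in 10 of 12 in WS and 5 of 12 in sku5. BBX24 and BBX25 were high in every BO group and were not called for flight. Calls rest on limma over all tested genes, at a Benjamini-Hochberg adjusted p under 0.05, and changes are on the log2(FPKM + 1) scale, which understates changes of genes with low values. FPKM is a read number scaled by transcript length and library size.

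The windows of 250 bases before the annotated start are shown for the genes with the largest falls at BO (ELIP1 and ELIP2), for HY5 and for BBX21, the member that rose. They were read from the RefSeq genome TAIR10.1, strand of the gene, and capitals mark the motifs searched. The ELIP1 window lies at chr3:8085670-8085919 (minus strand), that of ELIP2 at chr4:8417992-8418241 (plus), that of HY5 at chr5:3595074-3595323 (minus) and that of BBX21 at chr1:28365574-28365823 (plus).

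ELIP1: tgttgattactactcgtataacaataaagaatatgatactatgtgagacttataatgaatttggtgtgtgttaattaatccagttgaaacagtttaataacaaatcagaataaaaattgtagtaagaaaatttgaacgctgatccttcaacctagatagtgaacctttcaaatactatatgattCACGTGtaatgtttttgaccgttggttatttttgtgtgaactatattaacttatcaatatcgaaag
ELIP2: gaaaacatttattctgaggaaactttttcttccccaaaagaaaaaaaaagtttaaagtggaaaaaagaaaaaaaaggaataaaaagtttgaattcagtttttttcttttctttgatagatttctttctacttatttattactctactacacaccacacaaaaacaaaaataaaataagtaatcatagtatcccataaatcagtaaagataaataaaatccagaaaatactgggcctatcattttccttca
HY5: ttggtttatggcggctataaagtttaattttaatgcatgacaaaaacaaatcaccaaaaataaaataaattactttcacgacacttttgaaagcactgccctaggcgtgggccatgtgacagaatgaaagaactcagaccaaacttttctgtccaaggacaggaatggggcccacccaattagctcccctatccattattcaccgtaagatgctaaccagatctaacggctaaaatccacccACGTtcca
BBX21: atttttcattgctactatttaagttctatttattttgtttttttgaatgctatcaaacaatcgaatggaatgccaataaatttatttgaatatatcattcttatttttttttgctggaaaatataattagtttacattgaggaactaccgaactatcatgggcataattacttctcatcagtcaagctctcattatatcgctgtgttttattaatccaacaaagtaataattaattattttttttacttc

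The motifs were the G-box CACGTG, the C-box GACGTC, the A-box TACGTA and the core ACGT, which all of these contain, searched on both strands. ELIP1 held a G-box 66 to 61 bases before its start and was the 1 member of 10 with one (10.0%), beside 6.49% of the 27443 windows of protein-coding genes. HY5 held an ACGT core 8 to 5 bases before its start. In all, 6 of the 10 windows held the core (60.0%), beside 44.1% of all windows, and none held a C-box or an A-box, which 2.27% and 4.94% of all windows hold. The ELIP2 and BBX21 windows contained none of these letters in this stretch, nor did those of BBX22 and BBX25.

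On the same build, HY5 (AT5G11260) spans 3593335 to 3595073 of chromosome 5 and its longest annotated mRNA has 4 exons. HYH (AT3G17609) lies on chromosome 3 (6023844 to 6024710, 2 exons) and the single-exon gene RUP2 (AT5G23730) on chromosome 5 (8005097 to 8006630). BBX21 (AT1G75540, 28365824 to 28367738), BBX22 (AT1G78600, 29566863 to 29568931) and BBX24 (AT1G06040, 1828340 to 1829983) are on chromosome 1, each with 3 exons. On chromosome 2 are BBX25 (AT2G31380, 13381767 to 13383470, 3 exons) and SPA1 (AT2G46340, 19022154 to 19027528, 8 exons). ELIP1 (AT3G22840) covers 8084405 to 8085669 of chromosome 3 and ELIP2 (AT4G14690) 8418242 to 8419325 of chromosome 4, each with 3 exons. ELIP1 and ELIP2 transcripts shared no word of 50 bases, the longest shared run being 26 bases, nor did HY5 and HYH (17), BBX24 and BBX25 (32) or BBX21 and BBX22 (13). BBX24 overlaps AT1G06045 on the other strand by 344 bases and BBX25 overlaps AT2G31390 by 48. The library kit marks strand, but whether the counting used it is not given, so the values of these 2 genes may hold reads of their neighbours.

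**Figure D1:**
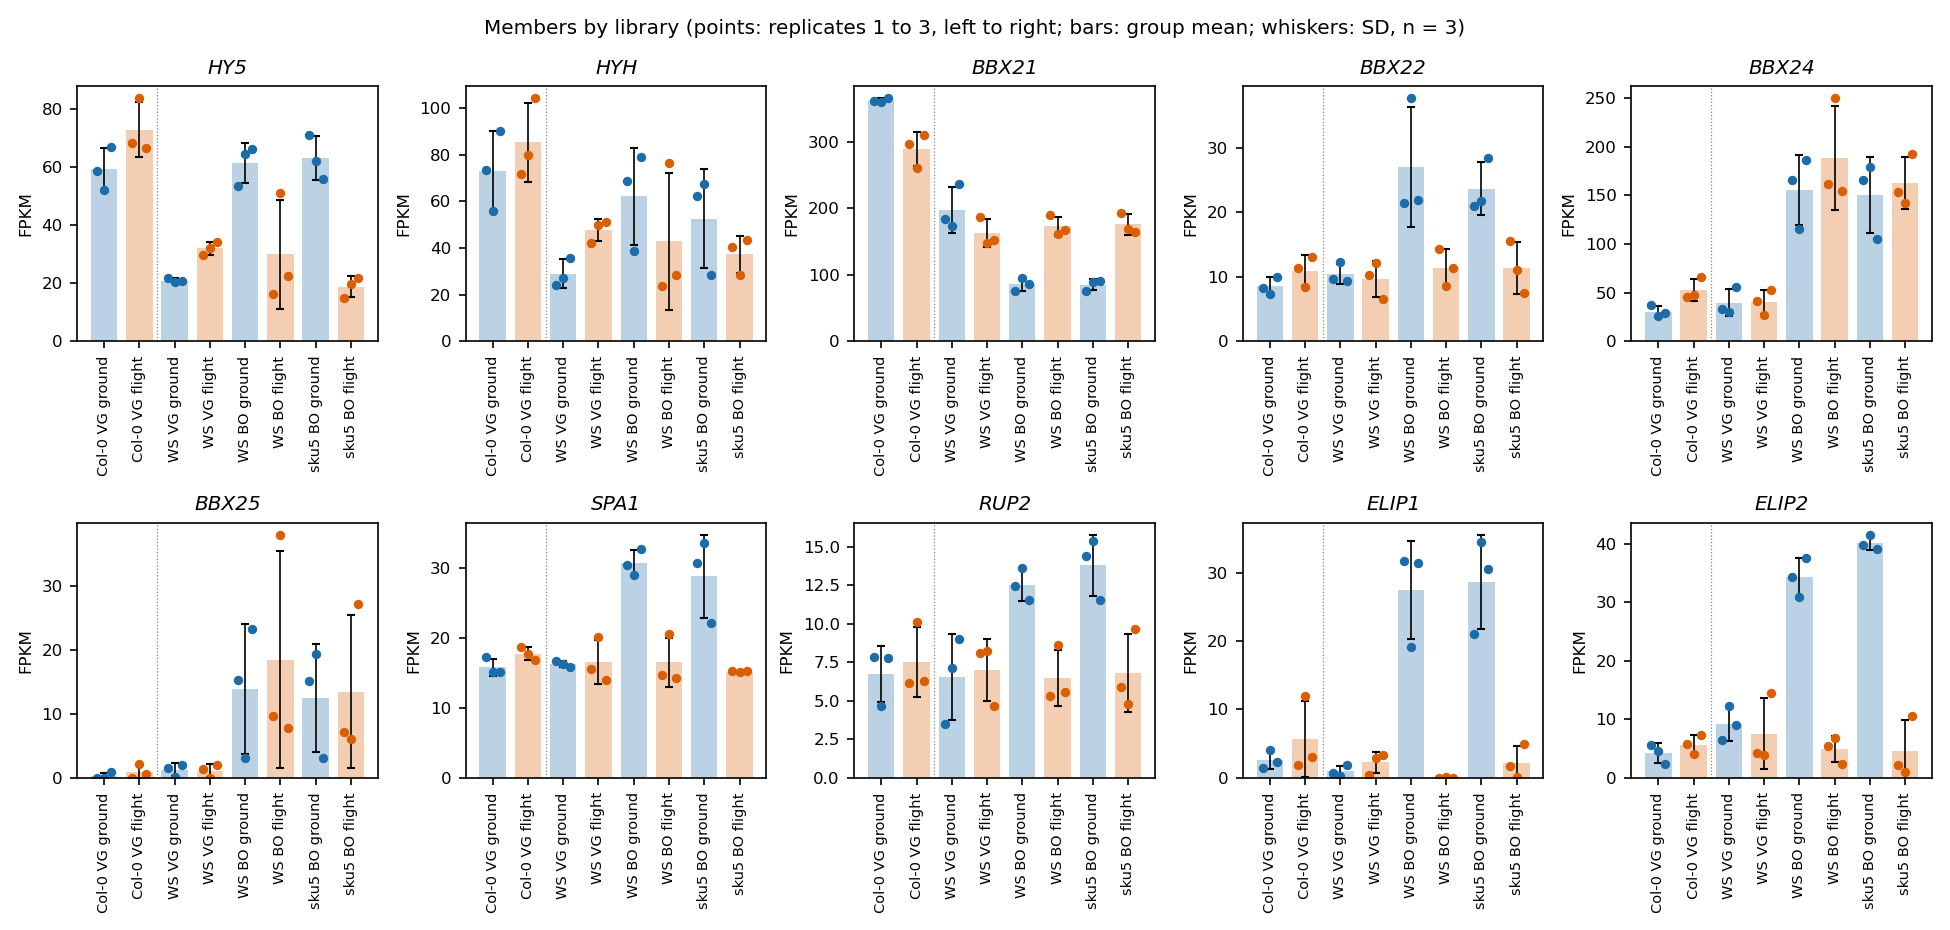
FPKM of each member in the 24 libraries, by group, with points for replicates 1 to 3 from left to right, bars for the group mean and whiskers for the SD (n = 3); blue is ground, orange is flight, and the dotted line parts the Col-0 table from the WS and sku5 table. ELIP1, ELIP2, SPA1 and BBX22 stand up in the BO ground groups, BBX21 is lowest there, and BBX24 and BBX25 are high in all BO groups.

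The libraries were of like breadth, with 18176 to 18877 genes at 1 FPKM or more. Read totals are not given, so depth is unknown. Over the 18 libraries of WS and sku5, principal component 1 (42.1% of the variance) parted VG from BO and component 2 (15.2%) BO flight from BO ground. On component 3 (7.48%), WS VG flight replicate 2, sku5 BO flight replicate 3 and sku5 BO ground replicate 3 stood apart, with scores of 45.0, 41.6 and 37.3 against 16.2 at most elsewhere. Root markers were present in every library: all 8, among them SCR, SHR and the beta-glucosidase PYK10, had 1 FPKM or more. SKU5 itself, the mutated gene, stood at 3.17 to 9.85 FPKM in the 6 sku5 libraries and at 51.1 to 94.2 FPKM in the 6 WS libraries at BO. Green-tissue markers were present too, 8 to 10 of 11 at 1 FPKM or more in all 3 libraries of a group, and 1 of 11 listed at 0 throughout Col-0 VG flight.

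HY5 levels in WS differed by site and, at BO, by flight. On the ground, WS roots held 21.7, 20.3 and 20.8 FPKM in replicates 1 to 3 at VG and 53.3, 64.3 and 66.3 FPKM at BO. Flown WS roots held 29.6, 32.1 and 34.2 FPKM at VG and 16.1, 51.2 and 22.4 FPKM at BO. Thus the BO ground libraries were all above every other WS library, and at BO 2 flown libraries lay near the VG ground level while replicate 2 lay just under the ground range. HY5 in sku5 was 14.8, 19.9 and 21.7 FPKM after flight and 71.2, 62.1 and 56.0 FPKM on the ground, with no overlap. In Col-0, where HY5 stood at 68.2, 83.7 and 66.4 FPKM after flight and 58.6, 52.1 and 66.9 FPKM on the ground, the groups overlapped.

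HY5 fell by 1.17 in WS after the BO flight (SE 0.27, limma adjusted p = 0.0113) and fell by 1.70 in sku5 (SE 0.27, limma adjusted p = 0.00118). The WS call was lost with only the 6 compared libraries in the fit (limma adjusted p = 0.0571) and without flight replicate 1 (0.0581) or flight replicate 3 (0.0543), each time with a lower HY5 in flight. The sku5 call held under all 12 alternatives, between -1.89 and -1.55. After the VG flight HY5 was not called, with log2 changes of 0.59 in WS (95% interval 0.01 to 1.17, limma adjusted p = 0.527) and 0.29 in Col-0 (-0.05 to 0.64, limma adjusted p = 0.994), though in WS all 3 flown libraries were above all 3 ground libraries. The difference of the WS flight effects, BO minus VG, was -1.76 (SE 0.39, limma adjusted p = 0.0147) and was called in all 18 alternatives.

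HYH, a bZIP factor that overlaps in function with HY5, was more variable. WS BO libraries held 23.6, 76.6 and 28.4 FPKM after flight and 68.7, 38.8 and 78.9 FPKM on the ground, while sku5 BO libraries held 40.4, 28.3 and 43.4 FPKM and 62.1, 67.3 and 28.2 FPKM. Both pairs of groups overlapped, with 1 flown WS library high and 1 ground library of each genotype low. No flight comparison called HYH (WS at BO -0.66, SE 0.38, limma adjusted p = 0.296; sku5 -0.41, SE 0.38, 0.548). The sku5 change was -0.91 (limma adjusted p = 0.205) when the 3 libraries that stood apart were dropped. Leaving out WS BO flight replicate 2 gave -1.17 and a call (limma adjusted p = 0.0421), and the BO minus VG difference was -1.37 with that library (limma adjusted p = 0.133) and -1.88 without it (0.028). At VG, WS flight libraries (42.2, 49.9 and 51.0 FPKM) were all above WS ground libraries (24.1, 27.3 and 35.8 FPKM), a log2 change of 0.71 that was not called (SE 0.38, limma adjusted p = 0.584). Col-0 libraries ran from 55.8 to 104 FPKM with overlap.

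Across the 9 members tested in Col-0 and the 10 in WS, limma called 0 after the VG flight. Over all tested genes 0.00532% were called in Col-0 (0% higher and 0.00532% lower) and 0.0298% in WS (0.00994% higher and 0.0199% lower), so the background was near 0 as well. Unadjusted p was under 0.05 for 926 and 1884 genes. The groups did not overlap for 2 of the members in each ecotype, BBX24 (higher) and BBX21 (lower) in Col-0 and HY5 and HYH (both higher) in WS, beside 10.3% and 14.7% of tested genes without overlap. BBX25 was not tested in Col-0, where it was listed at 0 in 3 of 6 libraries and at 2.15 at most.

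At BO, 6 of 10 members were called in WS, 1 higher and 5 lower, beside 11.7% of all genes (5.51% higher and 6.15% lower). In sku5, 7 of 10 were called, 1 higher and 6 lower, beside 10.3% of all genes (5.05% and 5.25%). The members' median log2 change was -0.87 in WS and -0.91 in sku5, with -0.08 and -0.09 over all tested genes. Flight and ground groups did not overlap for 7 of 10 members in both genotypes, beside 37.4% and 26.1% of genes. The members were chosen with earlier results of these data known, so the shares over all genes do not test for an excess.

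**Figure D2:**
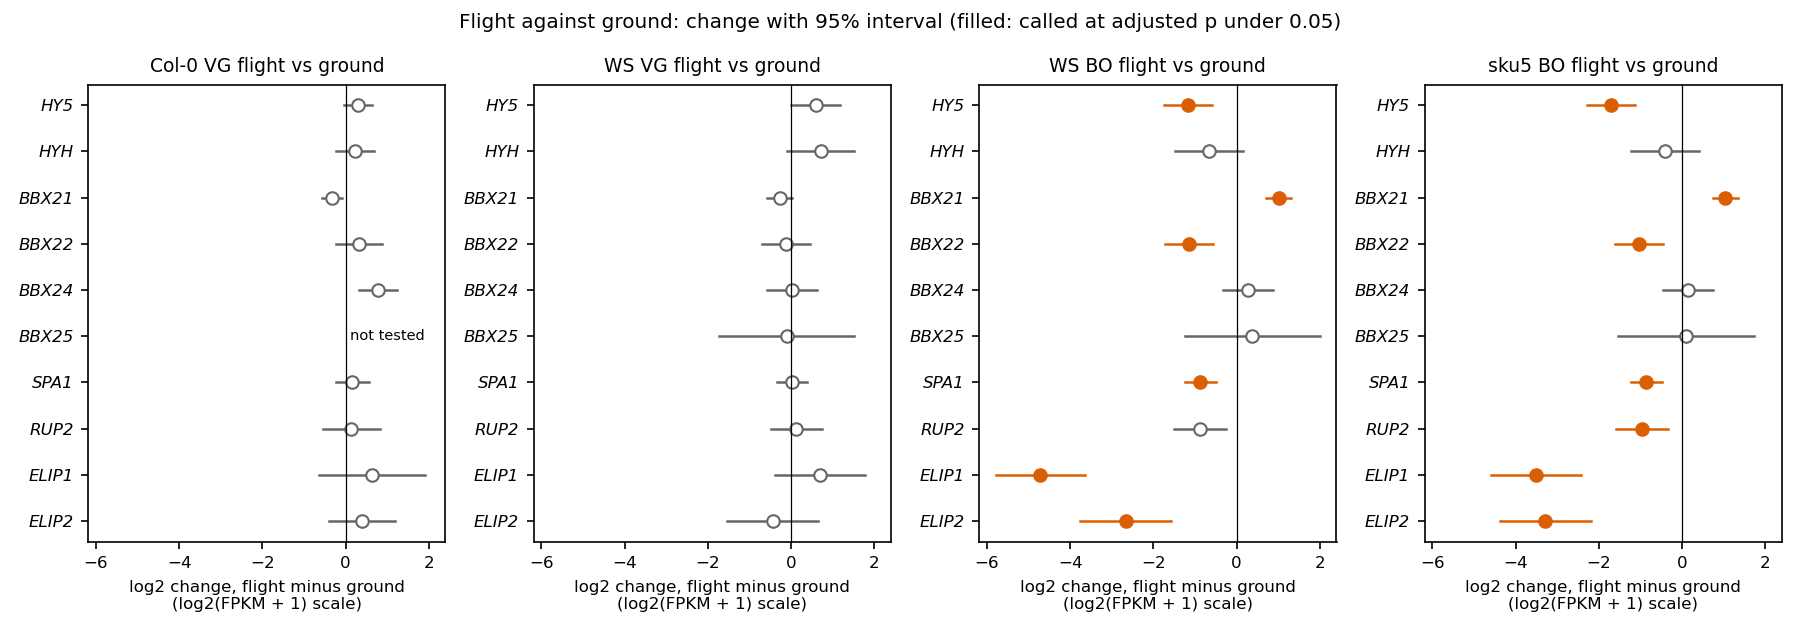
Log2 change of each member, flight minus ground, on the log2(FPKM + 1) scale (horizontal axis) in the 4 flight comparisons; points are limma estimates, lines 95% intervals, and filled points passed an adjusted p of 0.05. Filled points appear only in the 2 BO panels, with ELIP1 and ELIP2 farthest to the left and BBX21 at 1.01 and 1.04 to the right.

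ELIP1 was highest in the BO ground libraries. On the ground at BO it stood at 31.7, 19.1 and 31.4 FPKM in WS and 21.1, 34.5 and 30.5 FPKM in sku5. After the BO flight it was listed at 0, 0.17 and 0 FPKM in WS and at 1.67, 0.06 and 4.89 FPKM in sku5. The highest flown library, at 4.89 FPKM, was well under the lowest ground library. ELIP1 fell by 4.72 in WS (SE 0.51, limma adjusted p = 0.000101) and fell by 3.51 in sku5 (SE 0.51, limma adjusted p = 0.000609). With WS flight libraries at or near 0 the size depends on the pseudocount, and with 0.1 in place of 1 it was -7.59. At VG, ELIP1 was low throughout, with 0.47, 2.91 and 3.38 FPKM in flown WS, 0.71, 0.21 and 1.87 FPKM in ground WS, and 1.42 to 12.0 FPKM in Col-0.

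ELIP2, the second ELIP gene of the group, was also low after flight. BO ground libraries held 34.3, 30.9 and 37.6 FPKM in WS and 39.7, 41.5 and 39.2 FPKM in sku5, against 5.44, 6.76 and 2.40 FPKM and 2.27, 0.96 and 10.6 FPKM after flight. It fell in both, with log2 changes of -2.67 in WS (SE 0.52, limma adjusted p = 0.00373) and -3.29 in sku5 (SE 0.52, limma adjusted p = 0.000969). In sku5 the flown replicate 3, a library that stood apart, was highest for both ELIP genes, and without the 3 such libraries the changes were -4.06 for ELIP1 and -4.04 for ELIP2. VG levels of ELIP2 lay between 3.84 and 14.5 FPKM in WS and between 2.31 and 7.27 FPKM in Col-0, with flight and ground overlapping in both. Flown BO roots thus had ELIP2 at 0.96 to 10.6 FPKM, within or below the span of the WS libraries at VG.

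SPA1 encodes a partner of COP1 in the repression of light responses. WS at BO gave 14.7, 20.6 and 14.3 FPKM after flight and 30.5, 29.0 and 32.7 FPKM on the ground, and sku5 gave 15.3, 15.1 and 15.2 against 30.8, 33.6 and 22.1 FPKM. VG libraries of WS lay between 14.0 and 20.1 FPKM, so the BO ground libraries stood alone above the other WS and sku5 libraries. Col-0 libraries, which may be scaled separately, lay between 15.1 and 18.8 FPKM. SPA1 fell by 0.87 in WS (SE 0.17, limma adjusted p = 0.00419) and fell by 0.86 in sku5 (SE 0.17, limma adjusted p = 0.00497), in all 12 alternatives of each comparison.

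RUP2 encodes a WD40 protein that returns the UV-B receptor UVR8 to its inactive form. Levels were 5.33, 8.59 and 5.58 FPKM in flown and 12.4, 13.6 and 11.5 FPKM in ground WS at BO, and 5.91, 4.79 and 9.63 against 14.4, 15.4 and 11.6 FPKM in sku5. The groups did not overlap in either genotype. Limma called RUP2 in sku5 alone (-0.97, SE 0.29, adjusted p = 0.0453; WS -0.88, SE 0.29, adjusted p = 0.0633), and the difference between genotypes was not called (-0.09, SE 0.42). The sku5 call held in 3 of 12 alternatives. It was lost without flight replicate 1 (0.134) or 2 (0.153), ground replicate 1 (0.121) or 2 (0.131), with a pseudocount of 0.1 (0.0554), with no filter (0.0666), with TMM factors (0.0681), with the replicate block (0.0804) and with only the compared libraries (0.0751). The WS value passed with only the compared libraries (0.0211) and without the 3 libraries that stood apart (0.0429).

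BBX21, which promotes HY5 transcription and action, was the member with the highest mean FPKM in 5 of the 8 groups (BBX24 in the other 3) and moved the other way. WS at BO held 189, 161 and 167 FPKM after flight and 75.7, 94.8 and 85.9 FPKM on the ground, and sku5 193, 169 and 164 against 75.8, 88.6 and 90.4 FPKM. Flown and ground libraries were far apart in both genotypes. BBX21 rose by 1.01 in WS (SE 0.14, limma adjusted p = 0.000446) and by 1.04 in sku5 (SE 0.14, limma adjusted p = 0.00037). VG libraries of WS gave 186, 148 and 153 FPKM after flight and 184, 172 and 237 FPKM on the ground, which overlap. Col-0 had 297, 261 and 310.3 FPKM after flight and 361, 359 and 365 FPKM on the ground, lower in every flown library but not called (-0.32, SE 0.10, limma adjusted p = 0.939). BBX21 in WS therefore changed differently in the 2 flights, a BO minus VG difference of 1.28 (SE 0.20, limma adjusted p = 0.00299).

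BBX22 also promotes light-dependent development together with HY5. Its levels were 14.4, 8.61 and 11.3 FPKM in flown and 21.4, 37.7 and 22.0 FPKM in ground WS at BO, and 15.5, 11.0 and 7.56 against 21.0, 21.7 and 28.4 FPKM in sku5. VG libraries of WS lay between 6.57 and 12.3 FPKM, close to the flown BO libraries. Those of Col-0, which may be scaled separately, lay between 7.28 and 13.1 FPKM. BBX22 fell by 1.15 in WS (SE 0.28, limma adjusted p = 0.0129) and fell by 1.04 in sku5 (SE 0.28, limma adjusted p = 0.024). The WS call was lost without flight replicate 2 (0.0576) or ground replicate 2 (0.0582). In sku5 the call went with flight replicate 2 (0.0604) or 3 (0.0862) or any ground replicate left out (1, 0.0505; 2, 0.0502; 3, 0.0738), with only the compared libraries (0.0578) and without the 3 libraries that stood apart, where the change was -0.67 (0.169).

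BBX24 and BBX25, 2 closely related genes whose proteins counteract HY5, differed by site in WS, while flight at BO gave no call. BBX24 stood at 161, 249.9 and 154 FPKM in flown and 165, 115 and 186 FPKM in ground WS at BO, and at 153, 142 and 193 against 165, 179 and 105 FPKM in sku5. VG libraries of WS lay between 27.3 and 55.7 FPKM, below every BO library. Those of Col-0, which may be scaled separately, lay between 25.6 and 65.8 FPKM. BBX25 showed the same split at a lower level, with 3.10 to 38.1 FPKM in the 12 BO libraries and 0 to 2.03 FPKM in VG libraries of WS (0 to 2.15 FPKM in Col-0). Neither was called for flight at BO (BBX24 0.27, 95% interval -0.33 to 0.87, in WS and 0.14, -0.46 to 0.74, in sku5; BBX25 0.38, -1.25 to 2.01, and 0.09, -1.54 to 1.72). The intervals of BBX25 are wide, and its sign changed with single libraries: over the 12 alternatives of each comparison its change ran from -0.38 to 0.90 in WS and from -1.26 to 0.53 in sku5, the lowest sku5 value being without the 3 libraries that stood apart, where BBX24 in sku5 was -0.22. In Col-0 BBX24 was 45.2, 47.6 and 65.8 FPKM after flight and 37.3, 25.6 and 28.7 FPKM on the ground, higher in every flown library but not called (0.77, SE 0.20, limma adjusted p = 0.821).

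Within groups, some members varied together between replicates. Flown WS replicate 2 at BO was the high library for HY5, HYH, BBX24 and BBX25 at once. It was also the highest of its group for SPA1, RUP2, ELIP1 and ELIP2, and the lowest for BBX21 and BBX22. Ground WS replicate 2 and ground sku5 replicate 3 were the low ones for HYH, BBX24 and BBX25. Both were also lowest for SPA1 and ELIP2 and highest for BBX21 and BBX22. The shift in these libraries was thus not confined to a few members. After the group means were removed, the deviations over the 18 libraries correlated at r = 0.90 between BBX24 and BBX25, 0.81 between HYH and BBX25, 0.77 between HYH and BBX24, 0.75 between HYH and SPA1, 0.66 between HY5 and HYH and 0.65 between ELIP1 and ELIP2. These are descriptions, since libraries of a group share their fixation unit and all values of a library share its scaling. BBX22 went the other way, with -0.86 against BBX25, -0.78 against BBX24, -0.62 against HYH, -0.54 against ELIP2 and -0.53 against HY5, while BBX21 against HY5 gave -0.36. One of the libraries named here, ground sku5 replicate 3, stood apart on component 3, and the other 2 did not.

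**Figure D3:**
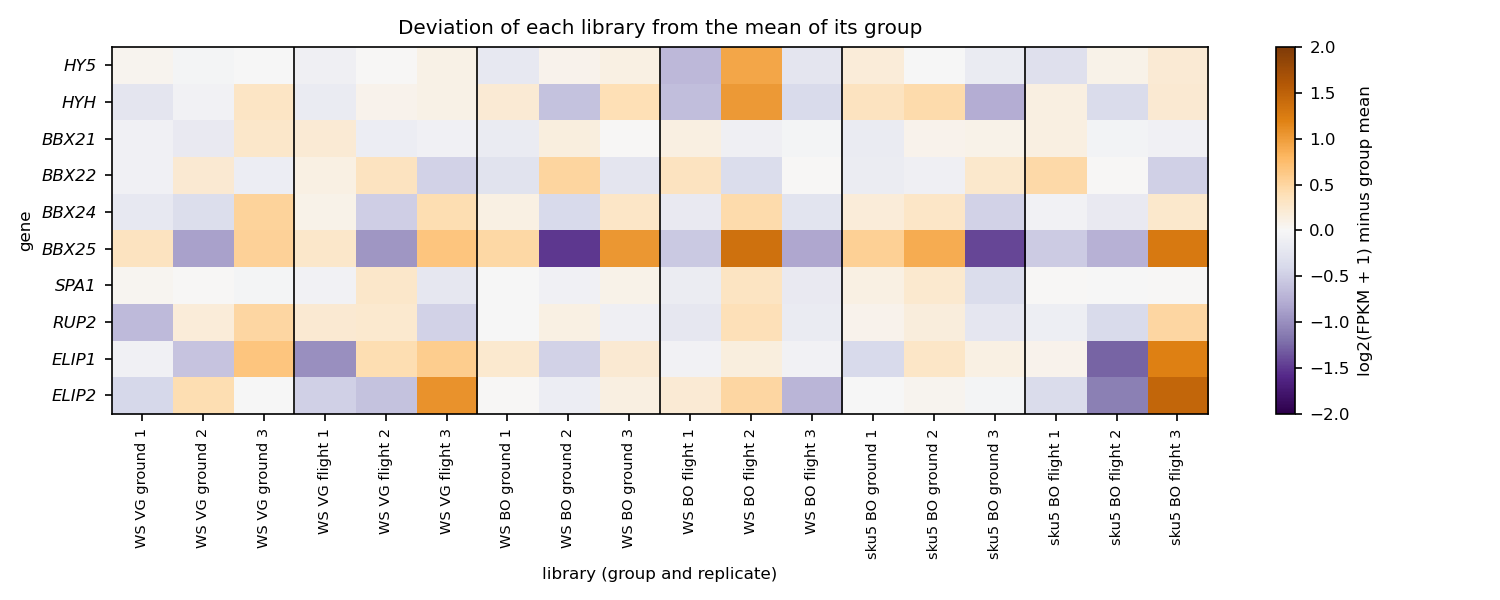
Deviation of each WS and sku5 library (columns, by group and replicate) from its group mean for each member (rows), as log2(FPKM + 1), with orange for higher and purple for lower libraries. BBX25 and HYH are orange in WS BO flight replicate 2 and purple in replicate 2 of WS and replicate 3 of sku5 on the ground, and BBX21 is pale in all libraries.

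The 2 genotypes were set against each other at BO. On the ground, 0 of 10 members were called between sku5 and WS by limma, beside 0.0149% of all genes (435 at an unadjusted p under 0.05). Their differences, sku5 minus WS, ran from -0.27 for HYH (95% interval -1.08 to 0.54) to 0.23 for ELIP2 (-0.87 to 1.32), and the narrowest interval was that of BBX21 (-0.31 to 0.29). ELIP2 was the 1 member without overlap, higher in sku5, beside 7.19% of all genes. The flight effect did not pass the test of a difference for any member either, beside 0% of all genes, with 317 genes at an unadjusted p under 0.05. ELIP1 had a gap of 1.21 (95% interval -0.32 to 2.73), which became 2.94 with a pseudocount of 0.1, 1.84 without sku5 flight replicate 2, 0.60 without sku5 flight replicate 3 and 0.66 when all 3 libraries that stood apart were dropped, never called, and HY5 a gap of -0.53 (-1.35 to 0.29), so changes of a log2 unit between genotypes are inside several of these intervals.

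WS ground libraries of the 2 sites differed for every member. Limma called 9 higher and 1 lower at BO than at VG, beside 32.2% of all genes (16.9% higher and 15.3% lower), and for all 10 the groups did not overlap, beside 50.0% of genes. ELIP1 was higher by 3.94 (SE 0.51, limma adjusted p = 2.32e-05), BBX25 by 2.51 (SE 0.77, 0.0198), BBX24 by 1.96 (SE 0.28, 6.79e-05), ELIP2 by 1.82 (SE 0.52, 0.0129) and HY5 by 1.50 (SE 0.27, 0.000569), while BBX21 was lower (-1.19, SE 0.14, limma adjusted p = 1.03e-05). BBX22, HYH, RUP2 and SPA1 were higher by 1.25, 1.03, 0.92 and 0.88. These values share the WS BO ground libraries with the WS BO flight comparison, so the 2 sets of signs are not independent. HYH kept its call in 3 of 12 alternatives and lost it without any 1 of 5 libraries (VG ground 1, 2 or 3, BO ground 1 or 3; 0.143, 0.102, 0.0596, 0.143 and 0.174), with a pseudocount of 0.1 (0.0531), no filter (0.0755), TMM factors (0.0526) and the replicate block (0.0844). RUP2 lost its call without VG ground replicate 1 (0.58, 0.143), BO ground replicate 1 (0.0616) or 2 (0.0702), BBX25 without VG ground replicate 2 (0.0791) or BO ground replicate 1 (0.0732) or 3 (0.0959), and ELIP2 without VG ground replicate 1 (0.0552).

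Green-tissue markers moved with site as well. Their summed level was 130 to 184 FPKM in WS VG ground and 493 to 742 FPKM in WS BO ground, and 9 of 11 were called higher. Of 8 root markers, 5 were called higher and 1 lower in the same comparison. Over all genes, 16.9% were called higher and 15.3% lower there. At BO the green-tissue sum was 743 to 805 FPKM in flown WS and 754 to 928 FPKM in flown sku5. On the ground it was 493 to 742 and 472 to 684 FPKM. Flown libraries at BO thus had the higher sums, though in WS the ranges only just parted (742 and 743 FPKM). This was not particular to BO. At VG the sum was 185 to 318 FPKM in flown WS and 130 to 184 FPKM in ground WS, which also only just parted. In Col-0 it was 168 to 213 FPKM after flight and 147 to 325 FPKM on the ground, which overlap. Abundant genes weigh most in such sums, as LHCB1.3 in sku5, with means of 115 FPKM on the ground and 280 FPKM after flight. The median log2 change of the list was 0.23 in WS and 0.16 in sku5 at BO. At VG it was 0.37 in WS and -0.07 in Col-0, with 0 markers called. Root-marker sums, mostly PYK10, were 2814 to 3689 FPKM in WS VG ground, 7343 to 8284 in WS BO ground, 4686 to 7442 in flown WS at BO, 4514 to 7986 in sku5 ground and 3680 to 5685 in flown sku5. The part of tissue makeup in the members' differences was not tested, and in whole roots fewer cells of a type and less RNA per cell cannot be told apart.

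The 2 WS flight effects were compared directly. Limma called 4 of 10 members, beside 6.83% of all genes (3.63% higher and 3.20% lower): ELIP1 (-5.41, SE 0.72, adjusted p = 0.00165), HY5, SPA1 (-0.89, SE 0.24, adjusted p = 0.0391) and BBX21. SPA1 was called in 10 of 18 alternatives and was lost without VG flight replicate 2 (0.103), VG ground replicate 1 (0.0724) or 3 (0.0914), BO flight replicate 1 (0.0881) or 3 (0.0974), or BO ground replicate 1 (0.0946) or 3 (0.0861), and with the replicate block (0.0556). ELIP2 was not called (-2.23, SE 0.73, adjusted p = 0.0762) but was with only the compared libraries (0.0357) and without the 3 that stood apart (-2.53, 0.0226).

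Other genes of the pathway were read from lists that, like the members, were chosen with earlier results of these data known. Over all genes, 5.51% were called higher and 6.15% lower in WS at BO, and 5.05% and 5.25% in sku5. With that choice, these shares give the scale of the list counts and do not test for an excess. Of 5 photoreceptor genes, PHYA and CRY1 rose in both genotypes at BO, PHYA, the far-red sensing phytochrome, from 37.2 ± 1.75 to 54.8 ± 1.43 FPKM in WS (SD, n = 3; log2 change 0.55, SE 0.15, limma adjusted p = 0.024) and CRY1, a blue-light receptor, from 25.5 ± 3.84 to 42.9 ± 1.88 FPKM (0.73, SE 0.16, 0.00691). In sku5 they rose by 0.64 and 0.57 (limma adjusted p = 0.0114 and 0.0305), and 3 of 5 were not called in either genotype. The list's median log2 change was 0.43 in WS and 0.47 in sku5. Leaving out single libraries left 0 to 2 photoreceptor genes called higher in WS (0 without ground replicate 1) and 0 to 3 in sku5 (0 without ground replicate 1), and 1 was called lower in WS without flight replicate 2. In ground WS, PHYA was lower at BO than at VG (37.2 against 49.8 FPKM, limma adjusted p = 0.0499). PHYB was higher there (24.3 against 11.6 FPKM, 0.000432), beside 16.9% of all genes higher and 15.3% lower. With single libraries left out, 0 to 1 were lower and 1 higher. Of 9 further genes of the COP1, SPA, DET1 and RUP repressor set, 0 were called by limma in either BO flight comparison, beside 11.7% and 10.3% of all genes, with list medians of -0.02 and -0.15.

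Of 28 other B-box genes, 21 were tested. In WS at BO, BBX28 rose by 1.50 (SE 0.37, limma adjusted p = 0.0163), BBX6 by 1.25 (SE 0.39, 0.048) and BBX19 by 1.22 (SE 0.35, 0.0307), and none fell, and in sku5 BBX6 alone rose, by 1.65 (SE 0.39, 0.0127). Thus 3 of 21 were called in WS and 1 of 21 in sku5, beside 11.7% and 10.3% of all genes. With single libraries left out, the higher count ran from 0 (without WS flight replicate 1 or 3 or ground replicate 1, or sku5 flight replicate 1) to 2, and 1 was called lower in WS without flight replicate 2. Between WS ground groups, 7 were higher and 3 lower at BO than at VG, beside 16.9% and 15.3% of all genes. Single libraries left out gave 4 (without VG ground replicate 2) to 6 higher and 1 (without VG or BO ground replicate 3) to 3 lower. The smallest p in each direction were those of BBX30 and BBX7, with BBX30 up by 3.43 (SE 0.60, limma adjusted p = 0.000372) and BBX7 down from 36.4 ± 6.12 to 10.4 ± 6.01 FPKM (SD, n = 3; limma adjusted p = 0.000249).

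HY5-regulated and UV-B response genes formed a list of 16. Of these, 14 were tested, and 7 fell and 0 rose in each BO flight comparison (medians -1.38 in WS and -1.34 in sku5), beside 6.15% and 5.25% of all genes lower. FLS1, flavonol synthase, went from 149 ± 23.1 to 9.81 ± 8.01 FPKM in WS (SD, n = 3; -4.05, SE 0.50, limma adjusted p = 0.000189) and from 157 ± 38.6 to 9.45 ± 9.90 FPKM in sku5 (-4.30, SE 0.50, 0.000115). TT5, chalcone isomerase, fell as well (-3.84 in WS and -3.59 in sku5), as did UGT84A1, which glucosylates hydroxycinnamates (-3.03 and -2.88). MYB12, an activator of flavonol genes, went from 24.3 ± 3.87 to 4.58 ± 1.33 FPKM in WS (SD, n = 3; limma adjusted p = 8.66e-05) and from 24.3 to 5.09 FPKM in sku5 (7.53e-05). TT4, chalcone synthase, fell too, from 542 ± 94.4 to 39.4 ± 36.8 FPKM in WS (SD, n = 3; -4.12, SE 0.65, limma adjusted p = 0.00104) and from 552 ± 166 to 45.2 ± 53.6 FPKM in sku5 (0.000935). MYBL2, a repressor of anthocyanin synthesis, stood at 21.9 ± 9.22 FPKM in flown and 6.80 ± 5.74 FPKM in ground WS (SD, n = 3; 1.79, SE 0.60, limma adjusted p = 0.0646) and at 17.3 ± 5.94 against 5.43 ± 3.21 FPKM in sku5 (1.62, SE 0.60, 0.0995), and was not called. These 2 genes were added here after their values were seen. Leaving out single libraries gave 6 to 7 lower in WS and 6 to 8 in sku5, and 1 higher in WS without ground replicate 2. On the ground, 11 of the 14 were higher in WS at BO than at VG, beside 16.9% of all genes, TT4 standing at 542 ± 94.4 against 1.31 ± 1.05 FPKM (log2 change 7.95, SE 0.65, limma adjusted p = 2.52e-07).

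ELIP relatives numbered 7, all tested. PSBS, which serves the dissipation of excess light energy, fell from 26.4 ± 8.62 to 5.95 ± 2.36 FPKM in WS at BO (-1.99, SE 0.41, limma adjusted p = 0.00546) and in sku5 (-1.90, SE 0.41, 0.00771), where LIL3:1 fell as well (-1.40, SE 0.34, 0.0152). The remaining 6 in WS and 5 in sku5 were not called, and 6.15% and 5.25% of all genes were lower. The count was 0 in WS with a pseudocount of 0.1 and 2 without flight replicate 2. In sku5 it was 1 without flight or ground replicate 1 or 2 and 3 without flight or ground replicate 3. On the ground, 6 of the 7 were higher in WS at BO than at VG, beside 16.9% of all genes (5 to 6 with single libraries left out). PSBS there stood at 26.4 ± 8.62 against 0.783 ± 0.822 FPKM (SD, n = 3, limma adjusted p = 2.44e-06). Among 11 green-tissue markers PSBO1, a subunit of the oxygen-evolving complex, rose in both genotypes (0.71, SE 0.17, 0.0149 in WS; 0.81, SE 0.17, 0.0077 in sku5), and LHCB1.3, a light-harvesting protein gene, rose in sku5 (1.29, SE 0.27, 0.00564), with 0 falling by limma, beside 5.51% and 5.05% of all genes higher. The WS call of PSBO1 was lost without flight replicate 2 or ground replicate 1. None of 8 root markers was called by limma in a BO flight comparison, though without sku5 ground replicate 3 there was 1 higher and 1 lower in sku5.

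**Figure D4:**
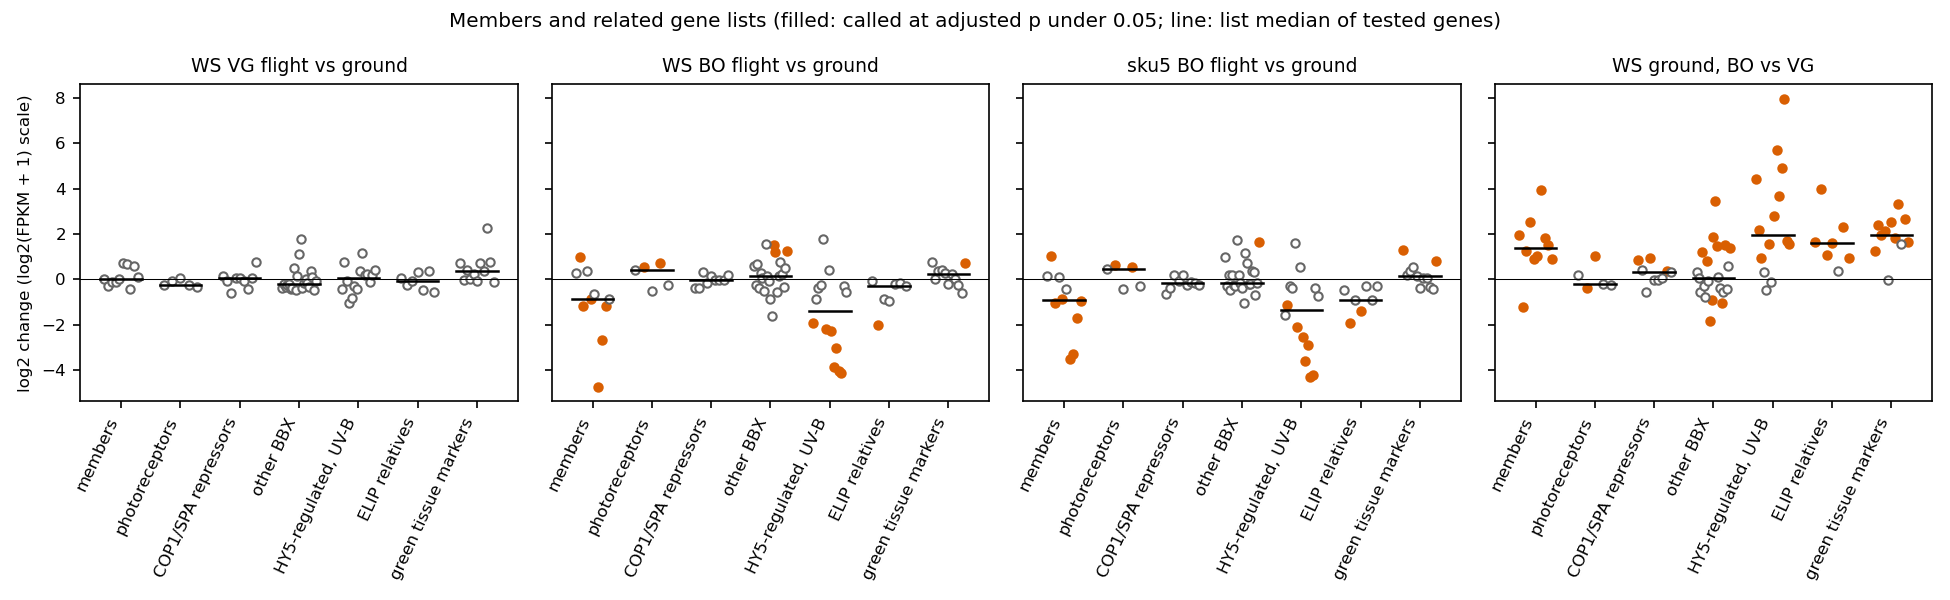
Log2 change on the log2(FPKM + 1) scale (vertical axis) of each tested member and list gene in 4 comparisons; filled points passed a limma adjusted p of 0.05 and lines are list medians. In both BO flight panels the filled members and HY5-regulated genes lie below 0 except BBX21, and in the panel of WS ground libraries, BO against VG, they lie above 0 except BBX21.

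The genes most like HY5 in level over the 18 WS and sku5 libraries were ABCI21 (r = 0.92), ABCI20 (0.91), TZP (0.90), FaTA (0.89) and FLS1 (0.89). Most like ELIP1 were TT7 (0.93), MYB12 (0.92), FLS1 (0.92), DBP1 (0.92) and CHIL (0.92). FLS1 was on both lists. With group means removed the correlations were 0.62 to 0.76 for the first 5 and 0.31 to 0.63 for the second 5. The libraries share groups, so these values mainly follow group means.

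In the authors' deposited table of changed genes for sku5 at BO (923 genes), 3 members are listed, with log2 fold changes of -1.66 for HY5, 1.14 for BBX21 and -3.0 for ELIP2. The authors' deposited table for WS at BO (865 genes) lists 4, BBX21 at 1.08, BBX22 at -1.17, ELIP2 at -2.74 and ELIP1 at -8.83 (SE 1.34). The authors' deposited tables for the VG flight (13 and 57 genes) list 0 members. The largest p-values in the authors' BO lists were 0.009993 (sku5) and 0.009996 (WS). Their limit thus differs from the adjusted p under 0.05 used here, and the counts are not alike. Called here but not listed there were SPA1 in both genotypes, HY5 in WS, and ELIP1, BBX22 and RUP2 in sku5.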

How the data were processed

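Whole-root poly(A) RNA was sequenced in 24 libraries. The submitters' processing notes name Trimmomatic 0.36 (trimming), FastQC 0.11.4 with MultiQC 1.1 (quality), STAR 2.7.3a (alignment), RSEM 1.2.31 (quantification) and DESeq2 (testing). For build, annotation and read totals: not given in the sources used here. The authors deposited 1 table for Col-0 (6 libraries) and 1 for WS and sku5 (18 libraries); no header names the unit, and the deposited values were read as FPKM from their column sums (1021560 to 1290750), which exceed those TPM would give. The 2 tables may be scaled separately, so Col-0 and WS levels are only set side by side. A further 4 deposited tables list changed genes with a log2 fold change and its standard error, a p-value (adjusted or not is unstated) and a mean count, treated as a score, per the file headers.

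Genes reaching 1 FPKM in 3 or more of the fitted libraries (18786 in Col-0 and 20127 in WS and sku5) were tested with limma 3.58.1 (R 4.3.3) on log2(FPKM + 1), its prior variance following a trend in mean level. Tests were two-sided and adjusted by Benjamini-Hochberg over all genes of each of 8 comparisons. Col-0 libraries were fitted alone and the other 18 together. The fit was tested on simulated data with independent normal noise at limma's own fitted spread. Shared fixation units and libraries that stood apart were not simulated, so this checks the code alone. Members and lists were chosen with earlier results of these data known. Text names all 10 members, up to 4 called genes by smallest p per list and comparison, and the 5 genes most like HY5 and ELIP1. Promoter windows come from RefSeq TAIR10.1, in Python 3.11.15, and identifiers matched the reference for 32375 of 32844 genes. Alternatives were a pseudocount of 0.1, no filter, a TMM factor, a replicate block, only the libraries compared and each replicate left out. Leaving out the 3 libraries that stood apart was chosen after seeing the data. Spike-ins were not analysed here.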

Additional observations from a re-analysis of the deposited data

Results flagged for a closer look

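The WS flight effect differed between the 2 flights, by limma's test of the difference (BO minus VG), for 4 members. On the log2 scale the difference was -5.41 for ELIP1, -1.76 for HY5, -0.887 for SPA1 and 1.28 for BBX21. SPA1 was called in only 10 of 18 alternatives, and ELIP1, HY5 and BBX21 in all 18. ELIP1, HY5 and SPA1 fell and BBX21 rose after the BO flight, while none of the 4 was called after the VG flight. The ground levels differed between sites as well, and vehicle, site, year, age, lamp and temperature cannot be told apart.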

How the results depend on the processing

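Of 27 member calls over the 8 comparisons, 18 were kept under every alternative and 0 changed sign; those lost are given beside their results, and the cause was not tested. ELIP1 at BO in WS moved from -4.72 to -7.59, and its BO minus VG difference from -5.41 to -8.79, with a pseudocount of 0.1. Counts over all genes moved more than counts of members. The Col-0 count of 1 became 0 with a pseudocount of 0.1, with no filter and with the replicate block. The WS VG count of 6 became 10 with a pseudocount of 0.1, 18 with no filter and 1 with only the libraries compared; that last setting also gave 942 in place of 2072 for sku5 at BO and 1 in place of 3 between the genotypes at BO ground. With single replicates left out, counts over all genes ran from 0 to 3 (Col-0 VG), 3 to 21 (WS VG), 879 to 1962 (WS BO), 1082 to 2194 (sku5 BO), 2 to 3 (sku5 against WS), 4718 to 6069 (WS ground, BO against VG), 0 to 1 (sku5 minus WS flight effect) and 467 to 1878 (BO minus VG flight effect), and member counts ran from 5 to 6, 5 to 6, 7 to 9 and 3 to 5 in WS BO, sku5 BO, the WS ground comparison and the BO minus VG effect, and stayed at 0 in the other 4. Same-numbered replicates did not deviate together (24 pairs, r from -0.30 to 0.14, 1 over 0.1). Different-numbered replicates gave r from -0.25 to 0.23 (48 pairs, 13 over 0.1). The labels do not say whether the numbers pair libraries, and these values do not decide it. With the replicate block, the calls of RUP2 in sku5 at BO (limma adjusted p = 0.0804), HYH in the WS ground comparison (0.0844) and SPA1 in the BO minus VG effect (0.0556) were lost. It lost no other member call. Depth per library is unknown, so no floor was set for levels near 0, and 3 libraries a group limit the precision. As a rough scale, the authors' mean count of ELIP1 is 278, beside a mean of 10.3 FPKM over the 18 WS and sku5 libraries. Which libraries that count covers is not stated.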
